A study of Mus musculus with 10 samples.

Results

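C1q-positive macrophages were followed in the mouse kidney cortex as cells that carry transcripts of the complement component C1q. A cell was taken when at least 2 of the genes C1qa, C1qb and C1qc were detected with at least 3 unique molecular identifiers (UMIs, counts of captured transcripts) in sum. It also had to hold 0 UMIs of Slc12a1, Pecam1, Havcr1 and Col1a1, which mark the thick ascending limb, endothelium, injured proximal tubule and collagen-making stroma. Cells were kept with 500 or more genes and no more than 50% of UMIs from mitochondrial genes. Of the 52797 kept, 2863 met the C1q part and 2336 met the whole rule, 4.42% of the cells. The other 527 held a UMI of an excluded gene, most often Havcr1 (272 cells) or Slc12a1 (239 cells). On day 7, where most of the cells came from, 56 and 40 members of the 2 libraries lay on the limit of 3 UMIs, and 81 and 35 cells with 2 C1q genes and 2 UMIs lay just outside.

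C1q is the recognition unit of the classical complement pathway, and tissue macrophages are its main source in the body. The C1qa, C1qb and C1qc chains assemble into a molecule that binds immune complexes and dying cells and helps their uptake. In the kidney, resident macrophages line the tubules and present antigen on major histocompatibility complex (MHC) class II, and after injury monocytes recruited through the chemokine receptor Ccr2 enter the tissue and can become macrophages.

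The study sequenced single cells from normal and injured kidneys with Drop-seq, a droplet method that catches the RNA of a cell on a barcoded bead and counts transcripts by their 3' ends. All 10 libraries came from mice aged 4 weeks: 1 untreated control, 1 each of days 1, 2 and 4 after injury, and 2 each of days 7, 11 and 14. The labels give the day but not the kind of injury, the strain or the sex, and do not say whether the 2 libraries of a day come from different animals. If they do not, the p-values measure only technical spread. The C1q-positive cells held 30876 to 2644604 UMIs per library, with a median of 1171 to 3301 UMIs per cell, and the control and day 14 libraries had 23 to 34 such cells each. In the median C1q-positive cell of a library, mitochondrial transcripts made up 2.36% to 15.5% of UMIs, the lowest share in a day 7 library and the highest in the control. Among 45 pairs of libraries, 62 barcodes were shared in all and at most 4 in a pair, and 0 of the shared barcodes belonged to C1q-positive cells in both. The second day 14 library stood apart from the first in interferon-induced genes. A value without it is therefore given for several results, though not for every size that its absence changes.

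The macrophage label was checked on genes outside the rule. Ms4a7, a membrane protein of mature macrophages, stood at 478 counts per 1000000 UMIs (CPM) in the control, 291 on day 1, 136 on day 2, 596 on day 4, 1390 and 1031 on day 7, 801 and 560 on day 11, then 903 and 782 on day 14. Its mean was 33.2 times that of the other cells, and it was above them in 10 of 10 libraries. After each cell was thinned to 1000 UMIs, Ms4a7 was found in 7.69% to 57.9% of C1q-positive cells and in 0% to 2.0% of tubular cells. Emr1, which encodes the macrophage marker F4/80, was 47.9 times higher than in other cells, the growth factor receptor gene Csf1r 26.5 times, and the immunoglobulin receptor gene Fcgr1 24.6 times. The fractalkine receptor gene Cx3cr1 was 34.9 times higher, in 10 of 10 libraries. Mertk, a receptor for dying cells, was less set apart, at 1.44 times the other cells and above them in 6 of 10 libraries. Csf1, which encodes the ligand of Csf1r, was at 0.592 times the other cells and above them in 2 of 10. Most other cells were of the tubule, as 38981 of the 52797 kept cells had tubular genes. A closer comparison is with 1075 cells that held 0 C1q UMIs and at least 2 monocyte genes. Against these the ratios were smaller, at 10.9 for Ms4a7, 25.6 for Emr1 and 7.38 for Cx3cr1. Since the cells were chosen on expression in the same libraries, these ratios are a description without a test.

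**Figure D1:**
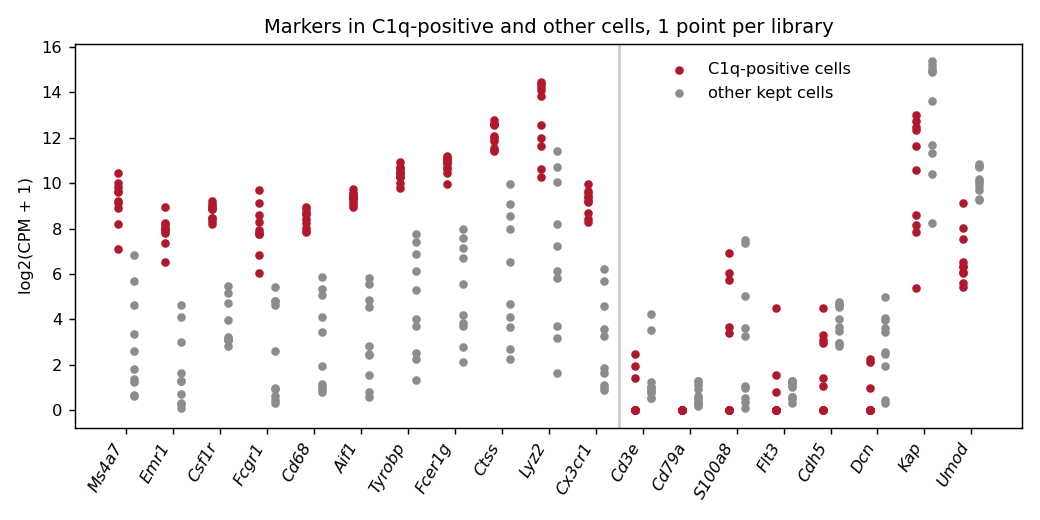
log2(CPM + 1) of macrophage genes (left of the line) and of genes of other cell types (right), with 1 point per library for C1q-positive cells (red) and 1 for all other kept cells (grey). Ms4a7 is above the other cells in 10 of 10 libraries, Cd79a is at 0 in the C1q-positive cells of every library, and the proximal tubule gene Kap is lower in them than in the other cells of each library.

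Genes of other cell types ranged from absent to abundant in the C1q-positive cells. The B cell gene Cd79a was at 0 in all 10 libraries, and 4 of the 8 B and plasma cell genes were at 0 throughout. The 8 genes summed to 64.8 to 201 CPM, against 5.73 to 312 CPM in the other cells. Their sum lay below the other cells in the control and on day 1 and above them in every later library. Ighm held UMIs in each library, with 6 in the control and 234 in the second day 7 library. The T cell gene Cd3e reached at most 4.54 CPM. The 13 T and NK cell genes summed to 0 to 119 CPM, against 12.1 to 374 CPM in the other cells, and lay above them on days 1, 11 and 14. The 12 dendritic cell genes summed to 324 to 623 CPM, above the 16.4 to 129 CPM of the other cells in 10 of 10 libraries. Irf8 held the most UMIs of the 12 in every library, with 10 in the control and 627 in the second day 7 library. In that day 7 library Naaa held 465, Xcr1 7 and Zbtb46 3. Flt3, which conventional dendritic cells need, reached at most 21.7 CPM. Clec9a, a receptor of cross-presenting dendritic cells, was 22.4 times higher than in other cells and above them in 6 of 10 libraries. That ratio rests on few UMIs: 5 and 2 on day 14, 15 and 24 on day 7, and 0 in the control and on days 1 and 11. The transcription factor gene Batf3 was 9.57 times higher in 10 of 10. Neutrophil genes summed to 0 to 777 CPM, with 3 of 11 at 0 throughout, and the 10 stromal genes to 0 to 97.2 CPM. The 16 proximal tubule genes summed to 1532 to 15647 CPM, against 6951 to 73288 CPM in the other cells of the same libraries. In return, 0.148% to 28.0% of tubular cells held a C1q UMI, most in the first day 7 library. In the C1q-positive cells the proximal tubule sum was lowest on day 7. The 13 genes of the distal nephron and collecting duct summed to 285 to 1426 CPM, with 1275 and 1426 on day 7, and the 5 erythroid genes to 9.09 to 1217 CPM.

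The share of C1q-positive cells was highest on day 7. They made up 0.554% of the control (34 of 6134 cells, exact Clopper-Pearson 95% interval 0.384 to 0.774), 0.504% of day 1 (18 of 3568, 0.299 to 0.796), 2.01% of day 2 (82 of 4087, 1.60 to 2.48) and 4.39% of day 4 (282 of 6417, 3.91 to 4.93). Day 7 held 17.2% (623 of 3621 cells) and 21.4% (1105 of 5154), a mean of 19.3% ± 2.99 (SD, n = 2 libraries). The share was 1.35% ± 0.387 on day 11, with 88 of 5409 and 57 of 5283 cells, and 0.360% ± 0.0402 on day 14, with 23 of 6941 and 24 of 6183 cells. Both day 7 libraries lay above all 8 others, and both day 14 libraries lay within the interval of day 1. Against the interval of the control, the first day 14 library (0.331%) lay below it and the second (0.388%) within it. Intervals cover counting error only. The rule sets these shares, so they are not tested, and a larger share of macrophages cannot be told apart from a loss of other cells in the suspension or from more C1q RNA per cell.

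**Figure D2:**
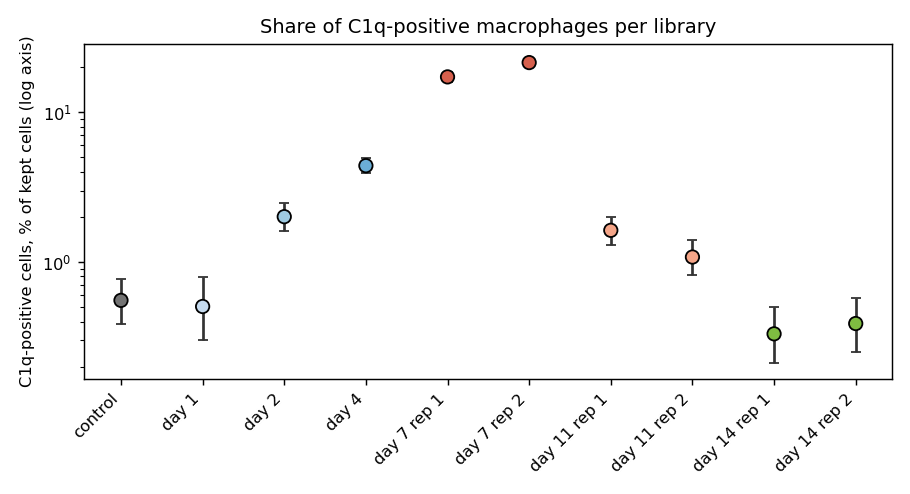
Share of C1q-positive macrophages among the kept cells of each library, in percent on a log axis, with exact 95% intervals that cover counting error only. The 2 day 7 libraries are at 17.2% and 21.4%, and the other 8 are at 4.39% or below.

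To compare the days, the UMIs of the C1q-positive cells were summed per library and tested with edgeR's quasi-likelihood F test and Benjamini-Hochberg adjustment at 0.05. The comparisons share groups: day 7 enters 3 of them and the control 2, so their results are not independent. Between day 7 and the control, 149 of 4269 genes changed (3.49%), 71 higher and 78 lower on day 7. Between day 11 and day 7 the number was 342 (8.01%), with 225 higher and 117 lower on day 11. Day 14 differed from day 7 in 156 genes (3.65%), from day 11 in 146 genes (3.42%) and from the control in 32 genes (0.75%), with 26 higher (0.609%) and 6 lower (0.141%) on day 14. A trend on the logarithm of the day over the 9 injured libraries called 29 of 4102 genes (0.707%), 21 rising and 8 falling. The trend is the only test that uses days 1, 2 and 4, and the lone control library was assumed to vary like the replicated days.

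Those counts depend on single libraries and on other settings. Without the second day 14 library, 7 genes differed between day 14 and the control, 79 between days 14 and 7 and 58 between days 14 and 11, and without the first one 54 genes differed between day 14 and the control. Without the second day 11 library, 135 genes differed between days 11 and 7 and 41 between days 14 and 11. Days 11 and 7 differed in 208 genes without the first day 11 library and in 164 without the first day 7 library. The trend called 9 genes without day 2, 91 without day 1, 17 without day 4, 16 without the first day 11 library, and 12 and 15 without the first and the second day 14 library. The balance of directions also depended on settings. In the trend, 25 genes rose and 66 fell without day 1, and 69 rose and 87 fell without a filter on low counts. Between day 7 and the control, 81 were higher and 24 lower without that filter, 95 higher and 60 lower when only these groups were fitted, and 17 higher and 94 lower with DESeq2. Without the second day 14 library, day 14 against the control had 2 genes higher and 5 lower. Without the filter, day 14 had 47 genes higher and 67 lower than day 7. With DESeq2's size factors in place of TMM, day 7 against the control had 53 genes higher and 90 lower, and day 14 against the control 22 higher and 9 lower.

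MHC class II genes were low in the first days after injury and rose with time. Of 14 genes in the class II list, 9 were expressed highly enough for the trend test, and 8 of them rose with the day, all but Cd86, where 0.512% of all genes rose. The median change of the 9 was 1.13 log2 units per doubling of the day, against 0.01 over all genes tested. Leaving out 1 library at a time left 5 to 8 of these genes rising. Other measures of the same cells had a like course. The mitochondrial share of the median cell was 15.5% in the control, 2.36% to 5.58% on days 1 to 7, 11.4% and 9.37% on day 11 and 9.57% and 8.66% on day 14. The proximal tubule sum was 8740 CPM in the control, 1532 to 6163 on days 1 to 7, 11757 and 15647 on day 11 and 10676 and 7123 on day 14. The slopes of H2-Ab1, H2-Eb1 and H2-Aa also passed the threshold in cells with at most 1% proximal tubule UMIs and in cells with at most 25% mitochondrial UMIs. The 25% limit removed few cells, as it kept 623 of 623 and 1105 of 1105 on day 7 and 83 of 88 and 56 of 57 on day 11. The part of the mitochondrial share in these slopes was not tested. The part of the dendritic cell genes in these results was not tested. H2-Aa and H2-Ab1 encode the chains of the I-A molecule, H2-Eb1 a chain of I-E, Cd74 the invariant chain that guards their groove, and H2-DMa, H2-DMb1 and H2-DMb2 the chains that load peptide.

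The upstream sequences of genes in this group are shown because 8 of 9 tested class II genes rose with the day and several share a known promoter element. The table of RefSeq windows (GRCm38.p6) matched 9 of the 14 listed genes. The Y box was searched as TGATTGG and the X box by its core GATGATG, on both strands of the 250 bases before the start, with letters chosen after these sequences had been seen. TGATTGG lay upstream of 7 of the 9 matched genes and in 2375 of 32851 windows of this length (7.23%). The 9 matched genes are not the 9 tested ones. H2-Eb2, H2-Oa and H2-Ob hold the match but were too low to be tested, and H2-Ab1 rose but was not matched. Of the genes that rose, H2-Aa, H2-Eb1, H2-DMb1 and H2-DMb2 hold it. GATGATG lay upstream of H2-Eb1, H2-DMb1 and H2-DMb2, and in 959 of the 32851 windows in all (2.92%). The windows are chr17:34287824-34288073 on the minus strand for H2-Aa, and on the plus strand chr17:34305617-34305866 for H2-Eb1, chr17:34152941-34153190 for H2-DMb1 and chr17:34144999-34145248 for H2-DMb2. Capitals mark the matches, each sequence ends at the base before the transcription start, and in the 3 genes with both the X box lies upstream of the Y box. A match is a description of the letters and not a measured site.
H2-Aa: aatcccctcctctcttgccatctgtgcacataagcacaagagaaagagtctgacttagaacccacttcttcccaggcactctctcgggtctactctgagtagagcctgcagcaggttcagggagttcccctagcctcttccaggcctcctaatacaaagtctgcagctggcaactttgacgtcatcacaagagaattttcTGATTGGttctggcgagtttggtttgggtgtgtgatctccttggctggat
H2-Eb1: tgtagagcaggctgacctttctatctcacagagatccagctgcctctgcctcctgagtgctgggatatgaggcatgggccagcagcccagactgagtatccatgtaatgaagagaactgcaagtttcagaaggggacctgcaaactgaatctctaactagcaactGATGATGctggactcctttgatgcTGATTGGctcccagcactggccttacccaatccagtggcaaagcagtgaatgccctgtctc
H2-DMb1: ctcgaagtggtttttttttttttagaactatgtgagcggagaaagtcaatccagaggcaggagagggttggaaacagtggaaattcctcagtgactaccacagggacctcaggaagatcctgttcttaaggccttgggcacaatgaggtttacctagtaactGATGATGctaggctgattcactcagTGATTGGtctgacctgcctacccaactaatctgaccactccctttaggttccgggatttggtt
H2-DMb2: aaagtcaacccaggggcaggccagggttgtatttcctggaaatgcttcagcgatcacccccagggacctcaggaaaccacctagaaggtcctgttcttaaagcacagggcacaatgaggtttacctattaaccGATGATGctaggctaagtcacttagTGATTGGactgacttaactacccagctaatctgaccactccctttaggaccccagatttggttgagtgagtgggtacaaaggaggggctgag

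H2-Ab1 and H2-Eb1 were lowest on day 1 and highest in the second day 14 library. H2-Ab1 stood at 7849 CPM in the control, 972 on day 1, 985 on day 2, 1127 on day 4, 2597 and 5648 on day 7, 7266 and 8587 on day 11, then 10863 and 11544 on day 14. All 5 libraries of days 1 to 7 and 1 of day 11 were below the control, and both day 14 libraries were the highest of the 10. Its slope over the injured libraries was 1.13 ± 0.17 log2 units per doubling of the day (SE, adjusted p = 0.00819 by edgeR). H2-Eb1 ran from 389 CPM on day 1 through 621 on day 2, 1233 on day 4, 2291 and 7184 on day 7, then 7769 and 8730 on day 11, to 8249 and 12638 on day 14, with 5000 in the control. The slope of H2-Eb1 was 1.46 ± 0.19 (adjusted p = 0.00446) and that of H2-Aa 1.17 ± 0.18 (adjusted p = 0.00819), and all 3 slopes stayed past the threshold in each of 19 other settings. In the other cells of the same libraries H2-Ab1 lay between 15.5 and 980 CPM and was highest on days 4 and 7.

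The class II calls between replicated days depended on single libraries. Between days 11 and 7, 7 of 9 class II genes were higher on day 11 (5.27% of all genes were) and none lower, and between days 14 and 7, 4 of 9 were higher (2.37% of all genes). Without the first day 7 library these numbers were 2 and 1. Without the second day 11 library the first was 3, and without the second day 14 library the other was 2. H2-Ab1 was 1.46 ± 0.32 log2 units higher on day 14 than on day 7 (adjusted p = 0.00044), 1.01 without the first day 7 library (adjusted p = 0.116) and 1.31 without the second day 14 library (adjusted p = 0.045). Between day 7 and the control, 1 of the 9 was lower on day 7 (Cd83, where 1.83% of all genes were lower) and none higher. Between days 14 and 11, 1 was lower on day 14 (Cd74, where 1.99% of all genes were lower) and none higher. Cd74 had another course. Its level was 7696 CPM in the control, 1101, 1631 and 1433 on days 1, 2 and 4, 3162 and 6562 on day 7, 13061 and 12060 on day 11, then 5416 and 5694 on day 14, so that day 11 overlapped with no other day. Cd74 was 1.64 ± 0.32 log2 units higher on day 11 than on day 7 (adjusted p = 1.83e-05), a call kept in 19 of 19 other settings. It was 1.42 log2 units lower on day 14 than on day 11 (log2 change -1.42 ± 0.33, adjusted p = 0.00158), and -1.39 without the first day 14 library (adjusted p = 0.0557).

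Cd83, a surface protein that keeps class II on the membrane, had the steepest slope among the tested genes of the list. Its values were 457 CPM in the control, 32.4, 30.3 and 64.0 on days 1, 2 and 4, 79.9 and 156 on day 7, 252 and 854 on day 11, then 934 and 826 on day 14. Day 14 lay above all other libraries except the second of day 11. Cd83 was 2.89 ± 0.35 log2 units higher on day 14 than on day 7 (adjusted p = 1.08e-13), and its slope was 1.88 ± 0.27 per doubling of the day (adjusted p = 0.00593).

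**Figure D3:**
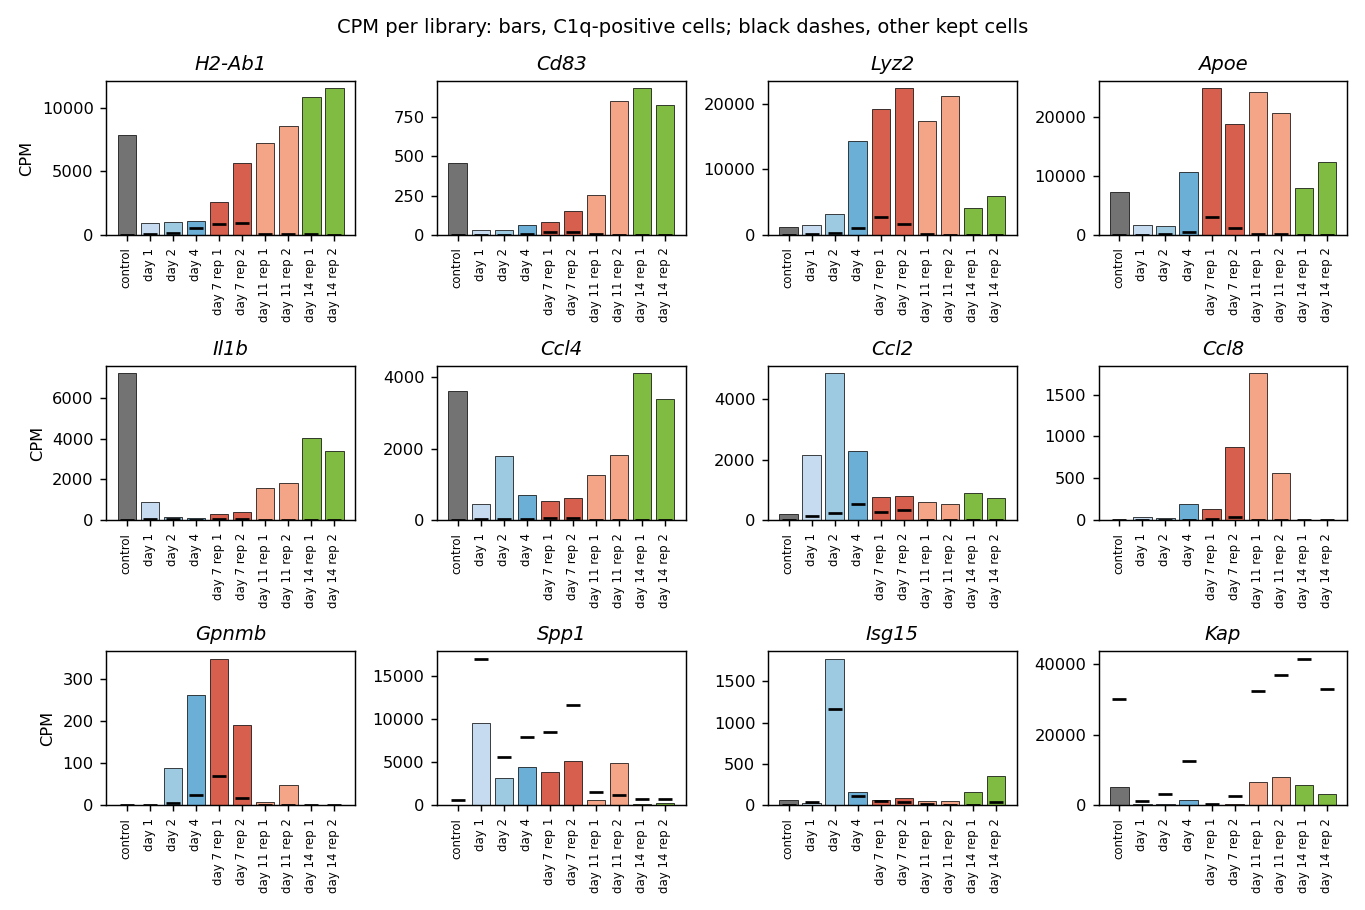
CPM of 12 genes in each library, with 1 bar per library for the C1q-positive cells and a black dash for all other kept cells, each panel on its own linear axis from 0. H2-Ab1 and Cd83 are lowest on days 1 to 4, Il1b is high in the control and on day 14, Lyz2 is highest from day 4 to day 11, and for Kap the dashes lie above the bars in 10 of 10 libraries.

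Lysozyme and apolipoprotein E peaked in the middle of the course. Of the genes that define the cells, C1qa stood at 1046 to 2714 CPM over the 10 libraries, with 2714 and 2685 on day 11 and 1058 and 1273 on day 14. C1qb stood at 1855 to 3684 CPM and C1qc at 1149 to 2745. The rule set a floor for these 3, so they are given without a test. Lyz2, which encodes the bacteria-degrading lysozyme of myeloid cells, was at 1239 CPM in the control, 1555 on day 1, 3137 on day 2, 14359 on day 4, 19181 and 22362 on day 7, 17361 and 21122 on day 11, then 4046 and 5962 on day 14. The libraries of days 4 to 11 lay apart from all others. Lyz2 was 3.98 ± 0.53 log2 units higher on day 7 than in the control (adjusted p = 2.53e-11), and on day 14 the log2 change was -2.01 ± 0.35 from day 7 (adjusted p = 2.22e-06) and -2.18 ± 0.36 from day 11 (adjusted p = 4.87e-07). These 3 calls were kept in all other settings. Apoe, the lipid carrier that macrophages secrete, was at 7283 CPM in the control, 1652, 1567 and 10649 on days 1, 2 and 4, 24845 and 18832 on day 7, 24200 and 20695 on day 11, then 8031 and 12370 on day 14. It was lower on day 14 than on day 11 (log2 change -1.38 ± 0.35, adjusted p = 0.00636), though not past the threshold without the first day 14 library (-1.11, adjusted p = 0.235). Lyz2 in the other cells also peaked on day 7, at 2712 and 1670 CPM.

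Ccr2, S100a4, S100a6 and Fn1 of the monocyte-derived list were higher on day 7 than in the control. Ccr2, the receptor that brings monocytes into tissue, was at 370 CPM in the control, 162 on day 1, 667 on day 2, 941 on day 4, 1442 and 1433 on day 7, 1029 and 740 on day 11, then 778 and 1563 on day 14. Both day 7 libraries were above the control, by 1.87 ± 0.46 log2 units (adjusted p = 0.00405). After thinning, 52.9% and 57.8% of day 7 C1q-positive cells held a Ccr2 UMI, against 25.9% in the control (7 of 27 cells) and 5.70% and 2.70% of day 7 tubular cells. Ly6c2, Plac8 and Ms4a4c, genes of blood monocytes, were highest on day 2, at 418, 1161 and 1203 CPM. Of the 20 monocyte-derived genes listed, 12 were tested between day 7 and the control, and 4 were higher (1.66% of all genes) and none lower. Ly6c2, Plac8 and Ms4a4c were tested and were not among the 4. Leaving out the second day 7 library left 2 higher. The median of the 12 was 5.21 log2 units, and 1.51 with genes that are at 0 in a group placed at their bound, against 0.24 over all genes. The 20 genes summed to 717 CPM in the control and 3127 and 3777 on day 7. In the other cells the sum rose as well, from 218 CPM in the control to 2250 and 2560 on day 7.

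Of 11 tested genes of the resident macrophage list, 1 passed the test with a level below the control on day 7 (1.83% of all genes did) and none with a level above it. That gene was Cd81, a membrane protein of many cell types, at 1283 CPM in the control, 421, 258 and 438 on days 1, 2 and 4, 332 and 501 on day 7, 724 and 493 on day 11, then 1089 and 715 on day 14. It was lower on day 7 by 1.70 log2 units (log2 change -1.70 ± 0.37, adjusted p = 0.000501). Between days 14 and 7, Cd81 and Cd72 were higher on day 14 (2 of 11, against 2.37% of all genes) and none lower. The change of Cd81 was 1.11 ± 0.32 (adjusted p = 0.0196); it missed the threshold without the first day 7 library (0.84, adjusted p = 0.38) and without the first or the second day 14 library (0.84 and 1.30, adjusted p = 0.327 and 0.051). Cd72 changed by 1.04 ± 0.33 (adjusted p = 0.0445). Between days 11 and 7 only Fcrls was higher among the 11, by 1.71 ± 0.44 (adjusted p = 0.00265, where 5.27% of all genes were higher), and none was lower. Cd72 and Fcrls are named after their values were seen and were not recomputed with libraries left out. Cx3cr1 stood between 313 and 1000 CPM over the 10 libraries and passed no test, and Mrc1, the mannose receptor of resident and alternatively activated macrophages, stood between 64.8 and 630 CPM and passed none. Pf4, a chemokine also made by platelets, was highest on day 1 at 842 CPM and fell with the day by 0.62 log2 units per doubling (slope -0.62 ± 0.12, adjusted p = 0.0194). The slope of Pf4 passed the threshold in 14 of 19 other settings; it was -0.56 (adjusted p = 0.0599) without the second day 14 library and -0.62 (adjusted p = 0.0707) without day 2, and also missed it without the second day 11 library (-0.63, adjusted p = 0.0511) and the first day 14 library (-0.58, adjusted p = 0.075).

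Il1b, which encodes the cytokine interleukin 1 beta, fell from the control to day 7 and was higher again on days 11 and 14. Il1b was at 7196 CPM in the control, 907, 145 and 106 on days 1, 2 and 4, 289 and 420 on day 7, 1555 and 1812 on day 11, then 4046 and 3372 on day 14. The control was highest, days 2 to 7 were lowest, and the pairs of days 7, 11 and 14 did not overlap. Il1b fell by 4.42 log2 units from the control to day 7 (log2 change -4.42 ± 0.36, adjusted p = 1.48e-31) and was 2.51 ± 0.31 higher on day 11 (adjusted p = 8.78e-14) and 3.40 ± 0.32 higher on day 14 (adjusted p = 8.23e-23) than on day 7. After thinning it was found in 25 of 27 control cells (92.6%), 6 of 77 day 2 cells (7.79%), and 12 of 19 (63.2%) and 16 of 21 (76.2%) day 14 cells. The share of tubular cells with Il1b was 0.1% in the control, 1.8% on day 2, and 0.1% and 0% on day 14. All 3 calls were kept in all other settings, among them cells with at most 1% proximal tubule UMIs and with at most 25% mitochondrial UMIs. The 25% limit kept 30 of 34 control cells and 623 of 623 and 1105 of 1105 day 7 cells, so it removed few. As given for class II, the mitochondrial share and the proximal tubule sum of the C1q-positive cells were also low on day 7 and higher in the control and on days 11 and 14. Their part in the Il1b result was not tested.

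Ccl4, a chemokine for monocytes and T cells, was at 3631 CPM in the control, 453, 1785 and 709 on days 1, 2 and 4, 532 and 615 on day 7, 1258 and 1822 on day 11, then 4109 and 3394 on day 14. Its day 7 level lay below the control (log2 change -2.75 ± 0.35, adjusted p = 2.87e-12) and higher on day 14 than on day 7 by 2.73 ± 0.31 (adjusted p = 1.89e-15). Cxcl2, which draws neutrophils, was at 1783 CPM in the control, 2170, 933 and 350 on days 1, 2 and 4, 197 and 304 on day 7, 892 and 1082 on day 11, then 623 and 581 on day 14. Its day 7 libraries were the lowest of the 10, with a log2 change of -2.90 ± 0.36 from the control (adjusted p = 3.12e-13) and a rise of 2.24 ± 0.30 to day 11 (adjusted p = 8.94e-12). In the whole list of 26 inflammatory genes, 23 were tested between day 7 and the control; 7 were higher (1.66% of all genes were) and 8 lower (1.83%), and the median was -1.33 against 0.24 over all genes, or -0.22 without the second day 11 library. Leaving out the second day 7 library left 2 higher and 8 lower. Between days 11 and 7, 11 were higher (5.27% of all genes) and 1 lower (2.74%), with a median of 0.79 against -0.10 over all genes. Leaving out the second day 11 library left 6 higher.

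Other chemokines of the list were higher on day 7 than in the control, among them Ccl2, Ccl7 and Ccl6. Ccl2 was at 196 CPM in the control, 2170 on day 1, 4858 on day 2, 2295 on day 4, 756 and 808 on day 7, 595 and 522 on day 11, then 903 and 737 on day 14. Day 2 was highest and the control lowest. Ccl2 was 1.91 ± 0.54 log2 units higher on day 7 than in the control (adjusted p = 0.0166), and 1.75 without the second day 7 library (adjusted p = 0.068). Ccl7, a close relative, was at 0 in the control and had 1166, 1922 and 994 CPM on days 1, 2 and 4, 365 and 526 on day 7, 252 and 285 on day 11, then 93.4 and 134 on day 14. Against 3 counts in the control it was at least 7.01-fold higher on day 7 (adjusted p = 7.76e-06). Ccl8 was at 0 in the control and on day 14, at 32.4, 24.2 and 197 CPM on days 1, 2 and 4, at 130 and 879 on day 7, and at 1754 and 560 on day 11. It was at least 37.1-fold lower on day 14 than on day 11 (adjusted p = 6.92e-21), a call kept in 19 of 19 other settings, though its replicates differed severalfold. Ccl6 was highest on days 4 and 7, at 1872, 1565 and 1478 CPM, and lowest in the control at 130; it was 3.45 ± 0.56 log2 units higher on day 7 than in the control (adjusted p = 2.07e-07) and lower on day 14 than on day 7 (log2 change -2.01 ± 0.36, adjusted p = 4.44e-06).

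Immediate early genes, which also respond to tissue dissociation, summed highest in the control and lowest on days 1 to 4. The 20 listed genes summed to 23372 CPM in the control, 8745, 7550 and 7938 on days 1, 2 and 4, 9926 and 13196 on day 7, 17056 and 15419 on day 11, then 17773 and 16255 on day 14. Of 19 tested, 7 were lower (1.83% of all genes were) and none higher on day 7 than in the control, with a median of -0.98 against 0.24, and 3 were lower without the first day 7 library. Atf3, a stress-induced transcription factor, was at 2544 CPM in the control, 268 and 422 on day 7, 1067 and 1309 on day 11, then 1370 and 1474 on day 14, with day 7 below the control (log2 change -2.95 ± 0.35, adjusted p = 1.16e-14). The other cells had 2825 CPM of the same list in the control, the lowest of their 10 values, and 8912 in the second day 7 library, the highest. The part of dissociation in the cytokine results was not tested.

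Genes of lipid handling and repair were among those higher on day 7 than in the control. Of 17 tested genes of the lipid-handling and repair list, 8 were higher on day 7 than in the control (1.66% of all genes were) and none lower, with a median of 2.47 log2 units (1.51 with bounds) against 0.24 over all genes. Between days 14 and 7, 6 of 17 were lower (1.29% of all genes were) and none higher, with a median of -1.14 against -0.08. Without the second day 14 library, 5 were lower. Gpnmb, a glycoprotein of lipid-laden and lysosome-rich macrophages, was at 0 in the control, on day 1 and in both day 14 libraries, at 87.9 and 263 CPM on days 2 and 4, 348 and 189 on day 7, then 7.62 and 47.4 on day 11. It was at least 3.41-fold higher on day 7 than in the control (adjusted p = 0.0022) and at least 5.91-fold lower on day 14 than on day 7 (adjusted p = 6.2e-06). Fabp5, a fatty acid carrier, was at 0 in the control, 32.4, 149 and 150 CPM on days 1, 2 and 4, 358 and 273 on day 7, 30.5 and 218 on day 11, then 0 and 22.3 on day 14. It was at least 4.33-fold higher on day 7 than in the control (adjusted p = 0.000632). In the other cells Gpnmb reached at most 68.4 CPM and Fabp5 69.9 CPM, both in the first day 7 library. The sum of the list rose in both kinds of cell, while 9 of the 17 tested genes were not called between day 7 and the control. Apoe made up most of the sum in the C1q-positive cells, and Spp1 most of the day 7 sum in the other cells. It summed to 9175 CPM in the control and 36393 and 32279 on day 7 in the C1q-positive cells. In the other cells it summed to 3447 CPM in the control and 15774 and 17653 on day 7.

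Ctsd and Ctsb, lysosomal proteases, were higher on day 7 than in the control. Ctsd was at 43.5 CPM in the control, from 2 UMIs, and at 1231, 1027 and 2251 CPM on days 1, 2 and 4, 2482 and 2345 on day 7, 564 and 1423 on day 11, then 249 and 871 on day 14. The control was lowest and day 7 highest, with a ratio of 52.1 between them (95% counting interval 14.4 to 430, adjusted p = 1.43e-13). Ctsd was lower on day 14 than on day 7 (log2 change -2.0 ± 0.34, adjusted p = 8.21e-07, and -3.35, past the threshold too, without the second day 14 library). Ctsb was at 870 CPM in the control, 2938 and 3162 on day 7, and 1899 and 1965 on day 14, and was 1.72 ± 0.43 log2 units higher on day 7 than in the control (adjusted p = 0.00432). Of 19 tested lysosomal genes, 5 were higher on day 7 than in the control (1.66% of all genes were) and none lower (1.83%), with a median of 1.20 against 0.24. The sum of the lysosome list rose from 9175 CPM in the control to 24153 and 24166 on day 7. In the other cells it rose from 2931 CPM to 10318 and 8320. The list did not share 1 order: Ctsc, a protease named here after its values were seen, was at 921 and 1174 CPM on day 7 and 1712 and 1407 on day 14.

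Spp1, Clu and Lgals3 were higher on day 7 than in the control as well. On day 7 the other cells held more Spp1 and Clu than the C1q-positive cells, and less Lgals3. Spp1, the secreted matrix protein osteopontin, was at 43.5 CPM in the control, 9587, 3137 and 4506 on days 1, 2 and 4, 3887 and 5160 on day 7, 564 and 4944 on day 11, then 93.4 and 290 on day 14. It was 105 times higher on day 7 than in the control (95% counting interval 29.1 to 868, adjusted p = 3.62e-17) and lower on day 14 than on day 7 (log2 change -4.44 ± 0.42, adjusted p = 2.44e-22). The day 14 libraries held 3 and 13 UMIs of Spp1, so the size of the latter change depends on the second. The other cells were at 622 CPM in the control and 8561 and 11612 on day 7, and Spp1 was above them in 1 of 10 libraries. Clu, a secreted chaperone of injured tubules, was at 0 in the control and 1586 and 821 CPM on day 7, and the other cells had 7188 and 4303 CPM there. In the C1q-positive cells its share was largest on day 1, with 180 of 30876 UMIs. Lgals3, a galectin of macrophages and epithelium, was at 43.5 CPM in the control and 940 and 1364 on day 7, and the other cells had 595 and 762. How much of these transcripts came from free RNA of other cells was not tested.

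Other genes of repair and matrix were at 0 in several libraries or had another order. Arg1, which splits arginine, was at 0 in the control and on day 1, at 45.5 and 148 CPM on days 2 and 4, 112 and 163 on day 7, 7.62 and 0 on day 11, then 0 on day 14. Day 11 had 1 UMI, and the ratio of day 7 to day 11 was 29.2 (95% counting interval 5.22 to 1157, adjusted p = 9.19e-06). Fn1, fibronectin, was at 0 in the control and on days 1 and 14 and at 95.5 and 221 CPM on day 7. Mmp13, a collagenase, had another order: 978 CPM in the control, 32.4, 109 and 53.9 on days 1, 2 and 4, 5.85 and 18.2 on day 7, 0 and 47.4 on day 11, then 31.1 and 223 on day 14. The control was above every injured library, and Mmp13 was lower on day 7 by 6.23 log2 units (log2 change -6.23 ± 0.52, adjusted p = 2.97e-30). The call was kept in all other settings. Its size depends on which day 7 library is used, as they held 6 and 48 UMIs.

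Interferon-induced genes were highest on day 2 and in 1 of the 2 day 14 libraries. The 24 listed genes summed to 2022 CPM in the control, 2073 on day 1, 23407 on day 2, 8623 on day 4, 3058 and 5245 on day 7, 2737 and 2021 on day 11, then 3548 and 12415 on day 14. The other cells were also highest on day 2, at 10744 CPM, with 140 to 2114 CPM in the other 9 libraries. On day 14 they were at 140 CPM in the first library and 515 in the second. Between days 14 and 11, 12 of 24 genes were higher (1.43% of all genes) and none lower, with a median of 1.99 against -0.03 over all genes. Without the second day 14 library, 0 of 24 passed the threshold in this comparison, and 0 against the control, where 8 had been higher (0.609% of all genes).

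Upstream sequences are shown for Isg15, a ubiquitin-like protein, and Rsad2, the antiviral enzyme viperin, because both carry the interferon-stimulated response element searched as GAAA, any 2 bases and GAAA again. This element lay upstream of 10 of 18 matched genes of the list and in 978 of 32851 windows (2.98%), on either strand, with letters chosen after these sequences had been seen. The windows, from the same RefSeq table and build and both on the minus strand, are chr4:156200819-156201068 for Isg15 and chr12:26456453-26456702 for Rsad2. Capitals mark the matches, of which Isg15 has 3 that overlap and Rsad2 has 1 that reads on the opposite strand.
Isg15: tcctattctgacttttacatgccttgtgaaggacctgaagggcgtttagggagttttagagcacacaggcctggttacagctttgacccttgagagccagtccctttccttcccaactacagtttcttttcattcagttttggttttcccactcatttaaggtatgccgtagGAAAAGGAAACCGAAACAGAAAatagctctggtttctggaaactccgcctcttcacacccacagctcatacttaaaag
Rsad2: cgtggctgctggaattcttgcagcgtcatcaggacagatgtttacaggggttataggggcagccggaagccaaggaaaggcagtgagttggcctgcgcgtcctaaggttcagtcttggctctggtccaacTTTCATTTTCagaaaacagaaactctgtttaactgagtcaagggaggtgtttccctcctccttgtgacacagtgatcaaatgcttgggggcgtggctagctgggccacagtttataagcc

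Single interferon genes are given by library. Isg15 was at 65.2 CPM in the control, 32.4, 1776 and 160 on days 1, 2 and 4, 59.4 and 89.2 on day 7, 45.7 and 47.4 on day 11, then 156 and 357 on day 14. It was 2.28 ± 0.57 log2 units higher on day 14 than on day 11 (adjusted p = 0.00535), and 1.35 without the second day 14 library (adjusted p = 0.437); it also missed the threshold without either day 11 library (2.23 and 2.25, adjusted p = 0.0603 and 0.102). Rsad2 was at 1555 CPM on day 2, 0 and 491 on day 14, and at most 70.7 in the other 7 libraries. Ifi202b encodes an interferon-induced sensor of DNA, and as with Isg15 both day 14 libraries were above both of day 11. Its values were 0 in the control, 356, 1691 and 677 CPM on days 1, 2 and 4, 276 and 258 on day 7, 0 and 9.49 on day 11, then 249 and 715 on day 14. The ratio of day 14 to day 11 was 104, with a 95% counting interval of 17.6 to 4202 because day 11 had 1 UMI (adjusted p = 5.5e-15), and the call was kept in 19 of 19 other settings. The day 14 libraries held 8 and 32 UMIs of Ifi202b, so the size of the ratio depends mostly on the second. The monocyte-derived list summed to 1494 and 5448 CPM on day 14, and it shares Ms4a4c and Ifitm3 with the interferon list. Ifitm3 held 20 and 91 UMIs on day 14, and Ms4a4c 0 and 38. Of genes of blood monocytes chosen after their values were seen, Ly6c2 was at 0 and 357 CPM on day 14. Plac8 was at 0 and 313, and Ms4a4c at 0 and 848. Most other genes of the list also had no UMI in the first day 14 library, among them S100a4, S100a6 and Fn1.

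**Figure D4:**
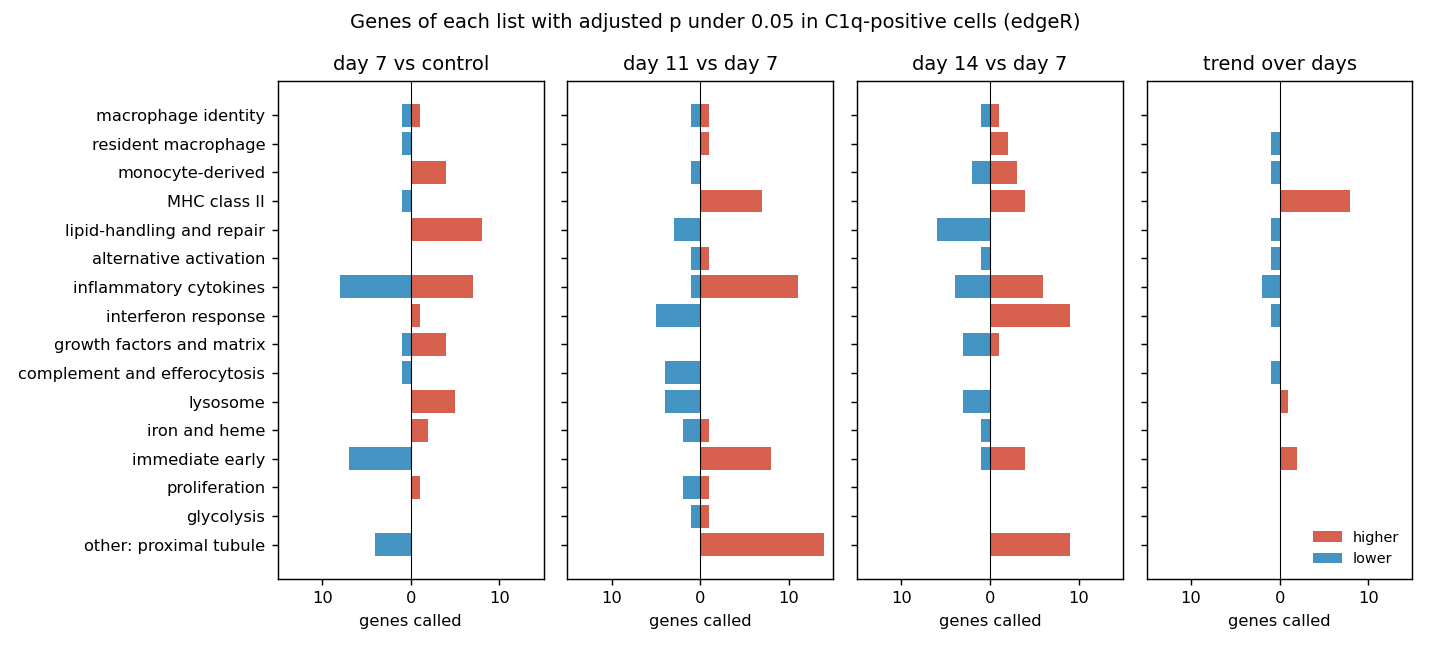
Number of genes of each list that passed an adjusted p of 0.05 in the C1q-positive cells (edgeR), with bars to the right for genes that were higher or rose and bars to the left for genes that were lower or fell, in 4 comparisons. MHC class II has 7 genes higher on day 11 than on day 7 and 8 rising with the day, the lipid-handling and repair list has 8 higher on day 7 than in the control and 6 lower on day 14 than on day 7, and 14 proximal tubule genes are higher on day 11 than on day 7.

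Of 21 tested proliferation genes, 1 was higher (H2afz, where 5.27% of all genes were) and 2 were lower (Top2a and Mki67, where 2.74% of all genes were lower) on day 11 than on day 7, and 1 was higher (Tubb5, where 1.66% of all genes were) and none lower (1.83%) on day 7 than in the control. Top2a, a topoisomerase of dividing cells, was at 43.5 CPM in the control, 97.2, 352 and 281 on days 1, 2 and 4, 293 and 163 on day 7, 91.5 and 47.4 on day 11, then 93.4 and 179 on day 14. It was lower on day 11 than on day 7 (log2 change -1.37 ± 0.43, adjusted p = 0.0228), but not past the threshold without the first day 7 library (-0.91, adjusted p = 0.452) or without either day 11 library (-1.93 and -0.98, adjusted p = 0.0611 and 0.507). The call was lost in 10 of 19 other settings in all. After thinning, Top2a was found in 18.2% of day 2, 16.4% of day 4, and 14.3% and 5.85% of day 7 C1q-positive cells, against 3.70%, 4.10%, 3.90% and 2.80% of tubular cells. Fth1, the ferritin heavy chain, ran from 3674 CPM in the control to 12793 on day 4.

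Proximal tubule transcripts were found in the C1q-positive cells of every library. Kap, an androgen-responsive proximal tubule gene, was at 5218 CPM in the control, 227, 282 and 1500 on days 1, 2 and 4, 40.9 and 383 on day 7, 6710 and 8094 on day 11, then 5634 and 3126 on day 14. In the other cells it was at 30199 CPM in the control, 301 and 2545 on day 7, then 32441 and 37131 on day 11, and in both kinds of cell the 4 lowest values were those of days 1, 2 and 7. On day 7 Kap was below the control (log2 change -4.64 ± 0.38, adjusted p = 1.89e-31) and 5.34 ± 0.36 higher on day 11 than on day 7 (adjusted p = 1.46e-46). The day 7 libraries differed severalfold, so both sizes depend on which is used. Over 19 other settings the change from day 7 to day 11 ranged from 4.55 to 7.81. Of 15 tested proximal tubule genes, 14 were higher on day 11 than on day 7 (5.27% of all genes were), with a median of 3.16 against -0.10 over all genes. After thinning, Kap was found in 4.32% to 100% of C1q-positive cells and in 10.1% to 98.8% of tubular cells. Counting only called genes with a higher mean level in C1q-positive than in other cells left 99 of 149 for day 7 against the control and 151 of 342 for day 11 against day 7.

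Day 14 was also compared with the control. Besides the interferon genes, Wfdc17, a small secreted protein of activated macrophages, was at 0 in the control, 324, 276 and 598 CPM on days 1, 2 and 4, 833 and 877 on day 7, 282 and 560 on day 11, then 1089 and 715 on day 14. The control was the only library without it. Wfdc17 was at least 12.9-fold higher on day 14 than in the control (adjusted p = 6.75e-08) and at least 12.6-fold higher on day 7 (adjusted p = 2.01e-09), in all other settings. Jund, a subunit of the AP-1 transcription factor, was at 870 CPM in the control, 745, 194 and 242 on days 1, 2 and 4, 582 and 354 on day 7, 366 and 247 on day 11, then 125 and 67.0 on day 14. Both day 14 libraries were lowest, with a log2 change of -3.30 ± 0.58 from the control (adjusted p = 3.45e-05) that held in all other settings. It rests on 4 and 3 UMIs of Jund on day 14 and 40 in the control. This comparison rests on 34 control cells and 23 and 24 day 14 cells.

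Within day 7, genes were compared cell by cell in 463 and 957 cells thinned to 1000 UMIs, as a description of each library. Arg1 was found in 18 and 44 cells. H2-Ab1 was found in 3 of the 18 Arg1-positive cells (16.7%, exact 95% interval 3.58 to 41.4) and in 61.3% of the 445 others, and in 4 of the 44 (9.09%, 2.53 to 21.7) and 82.9% of the 913 others. The Arg1-positive cells held Fn1 more often, in 5 of 18 (27.8%) and 20 of 44 (45.5%) cells, against 5.17% and 6.90% of the others. Ccr2-positive cells held H2-Ab1 in 72.2% and 88.4% of cells, and Ccr2-negative cells in 45.4% and 67.3%. For comparison, H2-Ab1 was found in 32.3% and 24.2% of day 7 tubular cells. Gpnmb and Fabp5 were found together: 53.6% of 69 and 61.5% of 65 Gpnmb-positive cells held Fabp5, against 11.4% and 7.62% of the others. These pairs were chosen after their values were seen. Of 15 pairs tabulated, 8 had intervals that did not overlap in both day 7 libraries, the described ones among them, and the intervals cover counting error only. On day 4, the shares of H2-Ab1 were 41.5% and 37.1% with and without Ccr2, and 12.5% and 40.0% with and without Arg1, with overlapping intervals. The shares of Fn1 with and without Arg1 on day 4 were 37.5% (8.52 to 75.5) and 2.17% (0.71 to 5.0), and those of Fabp5 with and without Gpnmb 41.7% (15.2 to 72.3) and 6.19% (3.43 to 10.2), with intervals apart. Of day 7 tubular cells, 0.2% and 0.1% held Arg1, 2.6% and 3.3% Fn1, 1.4% and 0.1% Gpnmb, and 1.5% and 1.1% Fabp5.

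**Figure D5:**
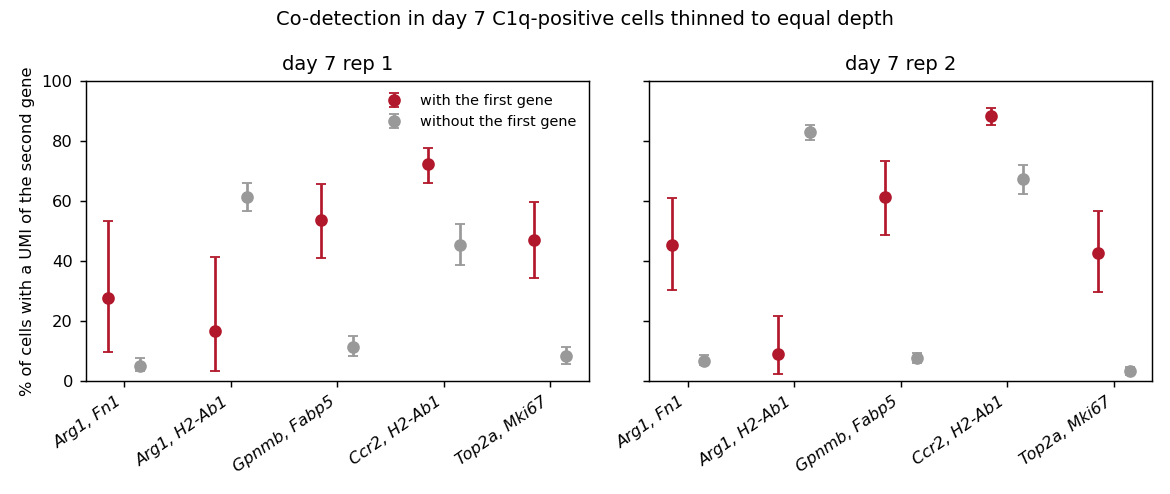
Share of day 7 C1q-positive cells with a UMI of the second gene of each pair, in percent, among cells with (red) and without (grey) a UMI of the first gene, after thinning to 1000 UMIs, with exact 95% intervals. In both libraries Arg1-positive cells hold H2-Ab1 less often and Fn1 more often than the others, Gpnmb-positive cells hold Fabp5 more often, Ccr2-positive cells hold H2-Ab1 more often, and Top2a-positive cells hold Mki67 in 47.0% and 42.9% of cells against 8.31% and 3.33%.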

How the data were processed

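Single cells of mouse kidney cortex were sequenced by Drop-seq as 10 libraries with 3' end cDNA, per the labels' protocols. The deposited values are UMI counts per gene and barcode, 1 table per library; the submitters' processing notes name Bowtie2 2.2.7 and mm10, and the alignment settings and filters are not given in the sources used here. Of 64803 barcodes, 52797 were kept. Every column of barcodes belongs to a library of the series.

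Counts of the C1q-positive cells were summed per library and compared with edgeR 4.0.16 (R 4.3.3): filterByExpr, TMM, 1 term per group over all 10 libraries, quasi-likelihood F test, Benjamini-Hochberg adjustment over all genes tested at 0.05. A separate fit took log2 of the day over 9 injured libraries. With 2 libraries per replicated day, 3 residual degrees of freedom carry the tests of groups and the other groups are assumed to vary alike. SE is the absolute log2 change divided by the square root of F. CPM is per 1000000 UMIs of the summed cells. Where a group has 0 UMIs, a fold is a bound against 3 counts over the group; with 1 to 3 UMIs it is a ratio with an exact 95% counting interval, both on TMM-scaled totals. Shares of cells with a gene were taken after thinning each cell to 1000 UMIs, leaving out shallower cells. Scrublet (scanpy 1.11.5) marked at most 0.111% of a library by its own threshold, so the highest 5% of scores were removed as an alternative only. DESeq2 1.42.0 was another alternative, and the script was tested on simulated counts. UMIs of a gene and of an overlapping, antisense or near-identical gene may not be told apart, as in H2-DMb1 and H2-DMb2.

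The cells, gene lists and tests were chosen with earlier results of these data known. Named genes are the 4 per direction and comparison with the largest change past the threshold (mean log2 CPM of at least 6, same direction in each pair of libraries, outside the cell rule and the lists of other cell types), and from each list up to 5 by level, up to 4 by change past the threshold and those whose role is described. Of these, the ones that carry a described group are printed. Alternatives covered scaling, filters, groups fitted, each library left out, the C1q limit, the excluded genes, the mitochondrial limit, doublets, thinning and proximal tubule UMIs. 3 were added after the data had been seen: no cells with the top 5% of UMIs, the replicated days without a block, and genes above other cells only.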

Additional observations from a re-analysis of the deposited data

Results flagged for a closer look

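The 2 day 11 tables are the only ones that hold barcodes with fewer than 500 detected genes, and these were left out of every comparison. Among them, 74 of 5362 barcodes (1.38%) of the first day 11 library and 52 of 5424 (0.959%) of the second met the C1q rule. They were singled out because they carry C1q signal in data that the comparisons do not use. With 88 and 57 C1q-positive cells above the limit in these libraries, the low barcodes nearly equal the cells that were used. The other 8 tables hold 0 such barcodes, so the day 11 shares and the other days were compared over the same limit of 500 genes.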

How the results depend on the processing

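Depth is lowest in the control and on days 1 and 14, with 18 to 34 cells and 30876 to 45996 UMIs each. Over the named genes, 16 of 35 calls between day 7 and the control were kept in every alternative, 13 of 33 between days 11 and 7, 13 of 38 between days 14 and 7, 3 of 21 between days 14 and 11, 2 of 14 between day 14 and the control, and 5 of 15 in the trend. Thinned cells gave 33, 115, 45, 21, 5 and 18 calls in the 6 comparisons in this order. Counting genes above other cells only gave 99, 151 and 86 calls in the first 3, and leaving out the cells with most UMIs gave 92 for day 7 against the control, 99 for day 14 against day 7 and 9 for day 14 against the control. At most 1% proximal UMIs left 214 calls between days 11 and 7 and 101 between days 14 and 7. DESeq2 called 225 genes between days 11 and 7 and 116 in the trend. Without a filter on low counts there were 91 calls between days 14 and 11, 20 between day 14 and the control and 156 in the trend. Fitting only days 14 and 11 gave 70. Removing top Scrublet scores gave 19 for day 14 against the control and 51 in the trend, and a C1q limit of 5 UMIs gave 45 in the trend. Leaving out 1 library at a time gave 107 to 202 calls for day 7 against the control, 135 to 426 for day 11 against day 7, 79 to 148 for day 14 against day 7, 41 to 140 for day 14 against day 11, 7 to 54 for day 14 against the control and 9 to 91 in the trend. The cause of these shifts was not tested, except that thinned and left-out cells give fewer counts.

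The replicate numbers are only shared: deviations of same-numbered libraries correlated at 0.160, 0.0644 and 0.0408 over 2426 genes. With the replicate block there were 247 calls between days 11 and 7, 121 between days 14 and 7 and 92 between days 14 and 11, against 216 between days 11 and 7 and 80 between days 14 and 11 in the same 6 libraries without a block. No crossed pairing was tried.

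The share of C1q-positive cells moved to 0.893% in the control with a mitochondrial limit of 25%. With a C1q limit of 5 UMIs it was 3.76% on day 4 and 13.7% and 19.9% on day 7, and without the excluded genes 6.28%, 21.7% and 25.3%. Unthinned, Ms4a7 was found in 58.4% and 64.0% of day 7 cells, Ccr2 in 59.6% and 66.4%, and Arg1 in 6.61% of the second library. DESeq2 size factors moved the median of all genes by -0.19 for day 7 against the control and by 0.11 for day 14 against day 7. With 1 library left out at a time, some fitted changes turned in sign or were 0, each without the second day 14 library; those against a library at 0 are no bounds. Between days 14 and 7 they ranged from -0.041 to 3.79 for Ifit2, -0.23 to 1.62 for Ifitm3, -7.03 to 3.64 for Ly6c2, -8.70 to 3.21 for Ms4a4c and -7.62 to 3.51 for Rsad2. Between days 14 and 11 the ranges were -5.53 to 9.79 for Ly6c2, -7.32 to 4.59 for Ms4a4c, 0 to 10.48 for Plac8 and -6.11 to 5.01 for Rsad2, and against the control -6.67 to 5.24 for Ms4a4c and 0 to 11.13 for Rsad2.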
